A study of Mus musculus with 12 samples.

Results

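The SINE B1 loci are the 498972 entries of the deposited repeat count table whose class is SINE and whose subfamily name begins with B1 or PB1, of 3156417 repeat loci in all. No expression value was used to choose them. They carry 16 subfamily names. The table was counted on RNA from naive CD4+ T cells of mouse spleen and pLN, written here as the labels abbreviate it, in 12 libraries that form 6 groups of 2. The WT group and the Ddx55-KO group (Ddx55 is a DEAD-box RNA helicase gene) were each sampled at 0 h, 8 h and 24 h of culture on plate-bound anti-CD3 (5 ug/ml) with anti-CD28 (2.5 ug/ml), which replaces antigen in triggering T cell activation. All 12 libraries were made from total RNA depleted of ribosomal RNA and kept strand information. The way the knockout was made, the strain, the age and any pooling of mice were not given in the sources used here. Nothing in the labels ties the pair of libraries of a group to different animals. The p-values below therefore measure only the spread between these libraries, which may be technical.

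B1 is a short interspersed element of rodents that descends from 7SL RNA, the RNA core of the signal recognition particle, and is the mouse counterpart of the human Alu element. An intact B1 copy carries an internal promoter for RNA polymerase III made of an A box and a B box, but most copies lie inside genes and are carried along in the introns and 3′ ends of RNA polymerase II transcripts. PB1 (proto-B1) names the oldest copies, B1F copies are younger, B1_Mur copies younger again, and B1_Mus and B1_Mm copies are the youngest in the mouse genome.

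Sequences are shown here as single examples of younger and older copies, and to show where the B box lies in those that match its core. Each is the copy with the most counts in its subfamily among the B1 loci whose sequence could be read from an exon of a GENCODE M21 transcript without coding sequence or UTR. Each is printed in the B1 direction (5′ to 3′), in the mm10 build, with capitals on the letters that match GTTCNANNC, the core of the B box. The B1_Mm copy lies antisense to an exon of Snhg1 (a host gene of small nucleolar RNAs) at chr19:8723580-8723727 on the minus strand. The B1_Mus1 copy lies in an exon of Mir155hg (the host gene of microRNA 155) at chr16:84714793-84714936 on the plus strand. The B1_Mur1 copy lies antisense to an exon of Btbd19 at chr4:117119914-117120039 on the plus strand. The B1_Mur4 copy lies in an exon where the genes Gm21992 (same strand) and Rbm4b (opposite strand) overlap, at chr19:4760960-4761109 on the minus strand. The B1F copy lies antisense to an exon of Ube2d3 at chr3:135457853-135458003 on the minus strand.
B1_Mm in Snhg1: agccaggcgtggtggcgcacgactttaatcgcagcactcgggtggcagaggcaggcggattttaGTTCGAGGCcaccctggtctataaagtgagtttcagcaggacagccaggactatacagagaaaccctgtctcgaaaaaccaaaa
B1_Mus1 in Mir155hg: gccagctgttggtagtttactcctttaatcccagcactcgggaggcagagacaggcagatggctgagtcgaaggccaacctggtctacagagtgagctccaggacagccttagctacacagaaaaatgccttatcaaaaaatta
B1_Mur1 in Btbd19: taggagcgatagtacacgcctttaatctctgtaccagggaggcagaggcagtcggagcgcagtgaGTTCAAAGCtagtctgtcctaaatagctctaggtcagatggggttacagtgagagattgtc
B1_Mur4 in Gm21992 and Rbm4b: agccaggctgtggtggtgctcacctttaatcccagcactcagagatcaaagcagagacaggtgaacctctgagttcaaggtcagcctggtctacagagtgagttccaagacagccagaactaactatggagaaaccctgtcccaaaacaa
B1F in Ube2d3: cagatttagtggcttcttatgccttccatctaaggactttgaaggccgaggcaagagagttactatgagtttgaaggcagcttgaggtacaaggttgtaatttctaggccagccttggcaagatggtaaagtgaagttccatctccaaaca

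The B1_Mm copy held 8 CpG pairs, the B1_Mus1 copy 2, the B1_Mur1 copy 4, the B1F copy 1 and the B1_Mur4 copy none. A GTTCNANNC match was present in the B1_Mm and B1_Mur1 copies and absent from the B1_Mus1, B1_Mur4 and B1F copies. These single copies therefore do not sort by age in the way the shares below do. Over the 12387 B1 loci with a readable sequence of at least 100 bases, GTTCNANNC, searched on both strands, was found in 36.9%, against 4.41% of 32851 RefSeq promoter windows of the same build cut to 132 bases, the median length of a B1 locus. The share was highest in the 3 youngest subfamilies, at 63.1% of B1_Mm, 58.3% of B1_Mus2 and 55.5% of B1_Mus1, and lowest in PB1D7, at 16.1%. The narrower string GTTCGAG, whose letters lie inside GTTCNANNC, was found in 47.2% of B1_Mm, 41.4% of B1_Mus2 and 33.8% of B1_Mus1, in at most 6.75% of any other subfamily and in 0.53% of the promoter windows. CpG pairs split the subfamilies in the same way, at 25.7 per kb in B1_Mm, 23.7 in B1_Mus2 and 17 in B1_Mus1 against 6.72 to 8.78 in the other subfamilies. A match says only that the letters are present. The readable loci are 15302 of the 498972 (3.07%), and 15125 of them are exonic, so these shares describe copies in exons.

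The library totals of the gene table ran from 16810375 to 19126498 counts. All levels below are counts per 1000000 counts of the gene table in the same library, written CPM. Ddx55 itself was read at 45.6 to 66.9 CPM in the 6 WT libraries and at 14.6 to 19.9 in the 6 KO libraries. The 8 T cell marker genes were counted in every group and summed to 2509 to 5219 CPM. The summed markers of basophils, neutrophils, myeloid cells and B cells were higher in both KO libraries than in both WT libraries at every time. The 7 basophil and mast cell markers summed to 7.21 to 35.9 CPM in WT and to 108.5 to 808.8 in KO, with the second KO replicate the higher at every time. The 7 neutrophil and progenitor markers summed to 505.9 and 509.9 in KO against 55.92 and 11.78 in WT at 0 h, and to 21.57 and 87.48 against 0.5862 and 0.4248 at 24 h. The 4 myeloid markers summed to 82.69 and 25.57 in KO against 21.3 and 13.38 in WT at 0 h, and to 24.91 and 21.65 against 9.272 and 7.063 at 24 h. The 5 B cell markers summed to 2.213 to 6.588 in KO and 1.673 to 4.164 in WT. The 4 CD8 T and NK markers were higher in KO at 0 h (48.84 and 30.53 against 19.15 and 19.36) and 8 h and overlapped at 24 h, and the 4 erythroid markers summed to at most 274.8 in any library. Every listed marker had a count. In bulk RNA, fewer cells of a type and less RNA per cell cannot be told apart.

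B1 loci took 3535904 counts over the 12 libraries, which was 20.33% of all counts on LINE, SINE, LTR and DNA repeats. Of the loci, 149615 (29.98%) had at least 1 count and 35219 had exactly 1. Counts were concentrated: 2775 loci held 50% of them and the 5 largest held 2.257%. The level differed with position in genes, taken from the GENCODE annotation without regard to strand. Exonic loci were 3.826% of the B1 loci and held 48.46% of the counts, intronic loci were 53.79% and held 45.35%, and intergenic loci were 42.39% and held 6.192%. A count was found on 65.82% of exonic, 38.93% of intronic and 15.4% of intergenic loci. Only the 8790 loci that passed the filter on low counts could be tested singly, 3477 of them exonic, 4932 intronic and 381 intergenic. The single B1F1~PB1D10 locus had no count, and the other 15 subfamilies were tested as sums over all their loci.

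Subfamilies differed in level per length and in where their reads lay. PB1D9 and PB1D7 had the highest counts per kb of sequence over the 12 libraries, at 112 and 99.5, and B1_Mm the lowest, at 34.8. Within introns alone the order of the ends was the same, with 81.1 counts per kb for PB1D9 and 40.3 for B1_Mm. The young copies had more of their counts outside genes: 14.0% of B1_Mm, 9.31% of B1_Mus1 and 9.08% of B1_Mus2 counts were intergenic, against 2.91% to 5.84% in the other 12. They were also the subfamilies with the largest share of intergenic loci carrying a count, at 22.4% for B1_Mm, 22.9% for B1_Mus2 and 19.1% for B1_Mus1 against 9.2% to 15.9%.

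The first comparison asked whether total B1 RNA differed between KO and WT. At 0 h B1 loci were read at 19197 and 18195 CPM in WT and at 16696 and 18724 in KO. At 8 h the values were 15509 and 16020 in WT and 15382 and 18092 in KO. At 24 h they were 13649 and 13173 in WT and 15122 and 16494 in KO. The genotypes overlapped at 0 h and 8 h, and at 24 h both KO libraries lay above both WT libraries. Over the 3 times the KO minus WT difference was 0.079 on the log2 scale (exact two-sided permutation test within times, p = 0.269, where the smallest p the design allows is 0.00926). By time it was -0.08 at 0 h, 0.082 at 8 h and 0.236 at 24 h. The ratio of B1 to B2 counts, B2 being the SINE of tRNA origin, was lower in KO by 0.029 on the log2 scale over the 3 times, with an exact permutation p of 0.0463 that became 0.0926 after Benjamini-Hochberg adjustment over these 2 tests. That ratio turned to 0.0441 higher in KO (exact permutation p = 0.333) when exonic loci were left out.

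By position, only the intergenic sum passed the test at 24 h. Exonic B1 loci were read at 7326 and 7393 CPM in WT and 7205 and 7393 in KO at 24 h. Those groups overlapped, and the edgeR quasi-likelihood test gave a log2 difference of -0.037 ± 0.029 (SE, adjusted p = 0.441). Intronic B1 loci stood at 5553 and 4910 in WT and 6707 and 7468 in KO. The KO libraries were both above the WT libraries, by 0.413 ± 0.131 (SE), with an edgeR adjusted p of 0.0968. Intergenic B1 loci stood at 769 and 870 in WT and at 1209.6 and 1634 in KO. This sum rose in KO, by 0.767 ± 0.154 on the log2 scale (edgeR, adjusted p = 0.0238), as 1 of 3 B1 sums called at 24 h against 19.0% of the 21 sums of all repeat families by position. The call was lost when any 1 of 8 libraries was left out: both replicates of WT 0 h, KO 0 h and WT 24 h, the second of WT 8 h and the second of KO 24 h.

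At 0 h and 8 h no B1 position passed the test between genotypes. Intergenic loci were read at 1014.6 and 881 CPM in WT and 862 and 897 in KO at 0 h, and at 952 and 1001 against 883 and 1151 at 8 h. Intronic loci were read at 9536 and 9023 in WT and 7517 and 9395 in KO at 0 h, and at 6707 and 7070 against 6598 and 8654 at 8 h. The groups overlapped in each of these. edgeR called none of the 3 B1 sums at either time, and none had an unadjusted p under 0.05 (the lowest was 0.0552). The difference between KO and WT was itself larger at 24 h than at 0 h, by 0.925 ± 0.217 (SE, edgeR adjusted p = 0.0179) for intergenic and by 0.599 ± 0.185 (adjusted p = 0.0366) for intronic B1 loci, while for exonic loci the change was 0.03 (adjusted p = 0.512). These changes were adjusted within 1 contrast, and the 24 h differences over the 3 genotype contrasts. For intronic loci the unadjusted edgeR p was 0.0136 for the change and 0.0154 at 24 h.

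**Figure D1:**
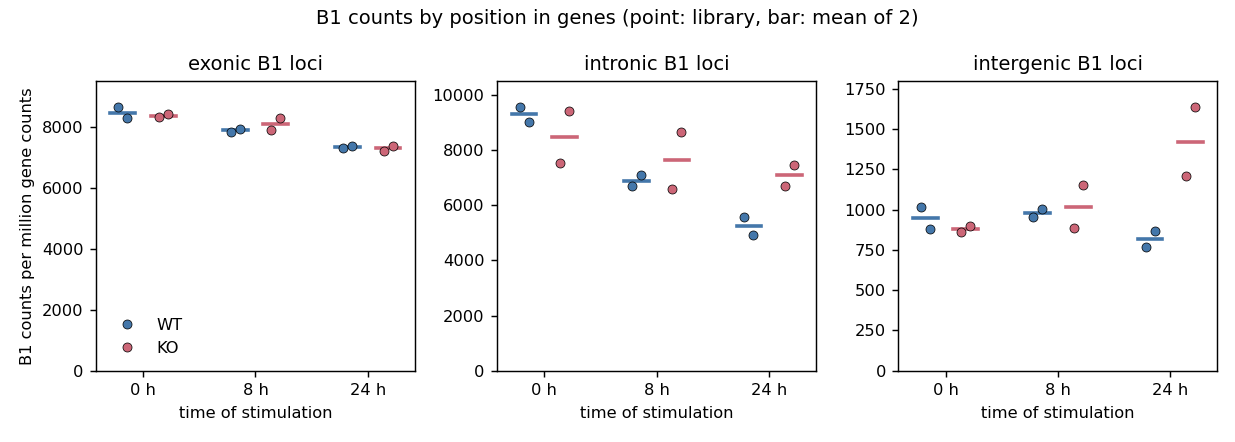
B1 CPM (vertical axis, linear from 0) in each library at 0, 8 and 24 h, for exonic, intronic and intergenic B1 loci. Points are libraries and bars the mean of 2. WT and KO lie together in exons, while in intergenic loci at 24 h the KO libraries (1209.6 and 1634) lie above the WT libraries (769 and 870).

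The same counts were then summed by subfamily. At 24 h edgeR called 3 of 15 B1 subfamilies higher in KO and none lower, against 15.9% of the 1180 repeat subfamilies tested, 13.6% of them higher. The median over the 15 was 0.158 on the log2 scale beside 0.34 over all 1180. B1_Mus1 was read at 1956.4 and 1969.6 CPM in WT and at 2406.2 and 2732.2 in KO, a rise of 0.363 ± 0.078 (SE, adjusted p = 0.00894). B1_Mm stood at 672 and 708.9 in WT and 800 and 971.4 in KO, a rise of 0.333 ± 0.099 (adjusted p = 0.0369). B1_Mus2 stood at 1591.2 and 1593.7 in WT and 1834.8 and 2076.8 in KO, a rise of 0.271 ± 0.078 (adjusted p = 0.0343). Those 3 are the youngest subfamilies, and in each the KO libraries were both above the WT libraries, the second KO library more so. The other 12 ranged from 0.081 (PB1D11) to 0.256 (B1F2) and did not pass, 3 of them at an unadjusted p under 0.05. The count of 3 fell to 0 without either WT 24 h replicate or without the second KO 24 h replicate, to 1 without either replicate of WT 0 h or WT 8 h, and rose to 6 without the second KO 8 h replicate. DESeq2 gave 0. For the change in the KO effect between 0 h and 24 h, edgeR called 2 of 15 subfamilies, B1_Mus1 (0.485 ± 0.111) and B1_Mus2 (0.382 ± 0.111), against 8.73% of all subfamilies. That count was 0 or 1 without any 1 library of 9, and 11, 7 and 5 without the second KO 0 h, the first KO 8 h and the second KO 8 h replicate.

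At 0 h and at 8 h edgeR called no B1 subfamily, against 0.593% and 0.254% of all subfamilies, with none at an unadjusted p under 0.05 and none by DESeq2. Split by position at 24 h, edgeR called no exonic subfamily sum, with 1 lower at an unadjusted p under 0.05, against 13.1% of all 818 exonic sums tested. Of the intronic sums 3 of 15 were called higher, again B1_Mm (0.513 ± 0.13), B1_Mus1 (0.485 ± 0.122) and B1_Mus2 (0.479 ± 0.123), against 7.27% of 976 higher. Of the intergenic sums 11 of 15 were called higher against 20.6% of 783, with a B1 median of 0.717 beside 0.669 over all intergenic sums. PB1, the oldest, was among the 11 (0.826 ± 0.231, edgeR adjusted p = 0.0338), while B1_Mur2, PB1D7, PB1D9 and PB1D11 were not, at 0.407 to 0.483. Old as well as young copies were among those called. The 11 became 0 without the first WT 24 h or the second KO 24 h replicate and 4 without the second WT 24 h replicate, and 3 when libraries were scaled to repeat counts.

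**Figure D2:**
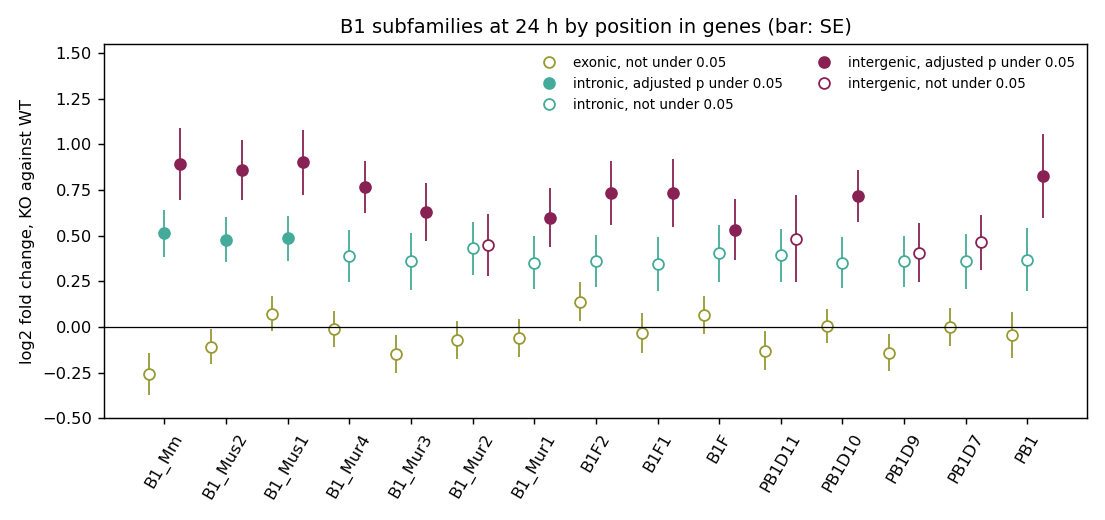
Log2 fold change of KO against WT at 24 h (vertical axis) for each B1 subfamily summed over its exonic, intronic or intergenic loci, ordered from young to old. Points are edgeR estimates, bars are 1 SE, and filled points have an adjusted p under 0.05. Exonic sums lie around 0, intronic sums between 0.343 and 0.513, and 11 of 15 intergenic sums are filled.

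Relative to gene counts, B1 counts inside genes were lower in WT after activation. In WT at 24 h against 0 h, intronic B1 counts fell by 0.812 ± 0.132 on the log2 scale (edgeR, adjusted p = 0.000636) and exonic counts fell by 0.188 ± 0.03 (adjusted p = 0.000625). The intergenic sum changed by -0.194 ± 0.153, which did not pass (adjusted p = 0.245). In KO over the same 24 h the intergenic sum rose by 0.732 ± 0.154 (adjusted p = 0.00559). Of the 15 subfamilies edgeR called 14 lower in WT at 24 h, all but B1_Mm (-0.225 ± 0.099, adjusted p = 0.0582), against 57.5% of all repeat subfamilies lower, with a B1 median of -0.5 beside -0.783 over all of them. That common fall depends on scaling to genes: with library sizes taken from the repeat counts, none was lower and 8 of 15 were higher. At 8 h 7 of 15 were lower against 37.5% of all subfamilies, and with repeat scaling 8 were higher and none lower. The 7 became 4 without the first replicate of WT 0 h or of WT 8 h. By position, all 15 intronic sums were lower in WT at 24 h against 61.9% of all intronic sums. Of the 15 intergenic sums 10 were lower, against 40.7%, and only B1_Mm was higher (0.528 ± 0.196, adjusted p = 0.0348), against 6.0%. With repeat scaling 5 of the intergenic sums were higher and none lower.

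The intergenic sum combines unlike places. It was divided into loci up to 10 kb past the end of a gene, loci up to 10 kb before the start of one, and 101448 loci farther than 10 kb from any annotated gene. Past gene ends B1 loci stood at 377 and 389.5 CPM in WT and at 493.8 and 606.6 in KO at 24 h, a rise of 0.496 ± 0.119 (SE, edgeR adjusted p = 0.0476). Before gene starts they stood at 206.8 and 234.1 in WT and 344.6 and 440.3 in KO, a rise of 0.805 ± 0.143 (adjusted p = 0.024). In both places the KO libraries lay above the WT libraries. Of the other repeat families, only B4 and ID were also called before gene starts (0.657 ± 0.106, edgeR adjusted p = 0.024). The estimates of the other families there ran from -0.008 (LTR elements) to 0.843 (L1, not called). Past gene ends no other family was called, with estimates from 0.033 (B2) to 0.497 (L1). These sums by distance were not refitted with single libraries left out.

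Far from genes, B1 loci gave few counts in resting cells and more after activation in both genotypes. They were read at 89.17 and 94.19 CPM in WT and 76.17 and 102.9 in KO at 0 h. At 8 h the values were 188.1 and 221.2 in WT and 147.9 and 239.0 in KO. At 24 h they were 185.7 and 246.1 in WT and 371.2 and 587.1 in KO. Every 24 h library lay above every 0 h library, and at 24 h both KO libraries lay above both WT libraries, with the second replicate the higher in each genotype. In WT the sum rose by 1.181 ± 0.289 (SE, edgeR adjusted p = 0.0175) at 8 h and by 1.251 ± 0.289 (adjusted p = 0.00382) at 24 h, while the sums past gene ends fell by 0.644 ± 0.119 (adjusted p = 0.00134) at 24 h. The far sums of B2 and L1 rose in WT at 24 h too, by 0.694 ± 0.132 (edgeR adjusted p = 0.00142) and 0.888 ± 0.343 (adjusted p = 0.0408). Those of B4 and ID, DNA transposons, L2 and MIR, and LTR elements were not called. For B1, KO against WT at 24 h gave 1.121 ± 0.286 (edgeR, unadjusted p = 0.00505), and its adjusted p of 0.053 did not pass. The difference between the KO effects at 24 h and 0 h was 1.209 ± 0.404 (edgeR, unadjusted p = 0.0186, adjusted p = 0.0435). That change was adjusted within 1 contrast and the 24 h difference over 3, so the 2 adjusted p cannot be set against each other. Of the other 6 repeat families far from genes, 3 were called at 24 h (adjusted p = 0.024 each), B4 and ID at 1.174, DNA transposons at 1.371 and L2 and MIR at 1.065. B2 (0.36 ± 0.131, adjusted p = 0.145), L1 (1.128 ± 0.344, adjusted p = 0.0958) and LTR elements (0.536 ± 0.285, adjusted p = 0.316) did not pass.

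The counts far from genes were spread over many copies. The number of far B1 loci with a count was 705 and 812 in WT and 698 and 1015 in KO at 0 h, 2065 and 2624 in WT at 24 h, and 3587 and 4705 in KO at 24 h. The 10 loci with the most counts held 3.31% of them. Without the 1000 largest loci the remaining sum was 106 and 148 CPM in WT and 229 and 349 in KO at 24 h, so the KO libraries stayed above the WT libraries.

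Among far loci, the young subfamilies had the highest levels after activation. Per Mb of their own sequence, B1_Mm far loci averaged 6.0 CPM in WT at 0 h, 32.1 in WT at 24 h and 68.3 in KO at 24 h. B1_Mus2 averaged 6.7, 28.6 and 63.4, and B1_Mus1 6.39, 24.4 and 52.9. B1_Mur4 averaged 5.51, 10.2 and 24.3. The other 11 subfamilies ran from 5.5 to 11.8 in WT at 0 h and from 6.03 to 11 in WT at 24 h. The 15 subfamilies were thus within 5.5 to 11.8 CPM per Mb at rest, and after 24 h the 3 youngest lay above the range of the others.

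In the edgeR fit 4 of 15 far subfamily sums rose in WT at 24 h and none fell, against 19.3% of all 446 far sums higher. They were B1_Mm by 2.433 ± 0.267 (adjusted p = 6.9e-06), B1_Mus2 by 2.106 ± 0.241 (adjusted p = 9.51e-06), B1_Mus1 by 1.945 ± 0.295 (adjusted p = 0.000142) and B1_Mur4 by 0.898 ± 0.25 (adjusted p = 0.0079). The B1 median was 0.093 beside 0.306 over all far sums. The same 4 were called in WT at 8 h, where B1_Mm rose by 2.128 ± 0.266 and 27.1% of all far sums were called in either direction. Leaving out any 1 library left 3 or 4 far sums called at 24 h, and repeat scaling gave 10, all higher. In KO against WT at 24 h, 11 of 15 far sums were higher, by 1.061 (B1_Mm) to 1.376 (B1F2), against 27.8% of the 446, with a B1 median of 1.141 beside 1.145 over all far sums. B1F1, PB1, PB1D7 and PB1D11 did not pass. Differences between subfamilies in these effects were not tested. The 11 became 0 without the first WT 24 h replicate and 1 without the second KO 24 h replicate. That KO library also held more basophil and mast cell marker RNA (606.7 CPM) than the first (163.9). Both held more than the WT libraries at 24 h (9.539 and 8.231). The part of those cells in the result was not tested.

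**Figure D3:**
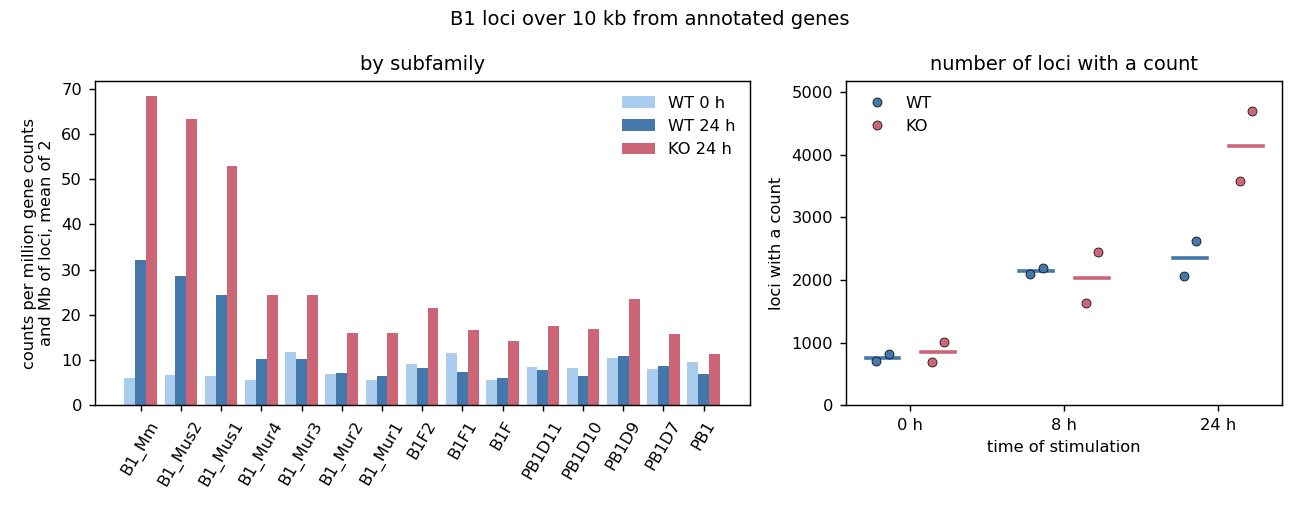
Left: mean CPM per Mb of locus sequence (linear axis from 0, 2 libraries each) of B1 loci over 10 kb from annotated genes, by subfamily from young to old, in WT at 0 h, WT at 24 h and KO at 24 h. Right: number of such loci with a count in each library, bars being the mean of 2. B1_Mm, B1_Mus2 and B1_Mus1 rise from about the level of the others to between 24.4 and 32.1 in WT at 24 h.

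Most single B1 loci that were called moved in the direction of their genes. At 24 h edgeR called 193 of the 8790 tested B1 loci higher and 135 lower in KO, against 3.95% of all 37251 repeat loci tested, with a B1 median of 0.237 beside 0.245. Of these, 92 higher and 116 lower loci were exonic, 92 and 19 intronic, and 9 and 0 intergenic. As shares of the tested B1 loci, these were 2.65% and 3.34% of exonic, 1.87% and 0.385% of intronic, and 2.36% and 0% of intergenic ones. Over tested loci of all repeats the shares higher and lower were 3.29% and 3.33% for exonic, 1.99% and 0.487% for intronic, and 2.3% and 1.59% for intergenic loci. With libraries scaled to repeat counts the split was 124 higher and 226 lower. Leaving out any 1 of the 24 h libraries brought the total of 328 to between 151 and 177. Among exonic loci inside 1 tested gene, 75 were called higher, and in 69 of them the gene was also called higher and in none lower. Of 100 exonic loci called lower, the gene was also lower in 99. Of 83 intronic loci called higher the gene was higher in 70, and of 19 called lower it was lower in 17. Across loci the log2 changes of locus and gene had a Pearson r of 0.731 over 2900 exonic loci and 0.469 over 4450 intronic loci. Loci of 1 gene share its transcripts, and the reads of a locus may be part of the count of its gene. The KO effect on single loci differed between 0 h and 24 h for 112 of them, 58 upward and 54 downward, against 1.41% of all tested repeat loci.

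Intronic loci were also set against the genes that hold them. At 24 h the median intronic B1 locus was 0.346 higher than its gene on the log2 scale in KO against WT, and 66.7% of the 4450 lay above their gene, against a median of 0.062 for exonic loci. Without regard to the gene, the median change was 0.356 over all 4932 tested intronic B1 loci. It was 0.355 over the 21764 tested intronic loci of all repeats, which were not set against their genes. In WT at 24 h against 0 h the median intronic locus was 0.945 below its gene. Summed over 4476 intronic loci and their 2404 host genes, B1 counts per 1000 host gene counts were 11.21 and 10.28 in WT and 9.26 and 10.61 in KO at 0 h. At 8 h they were 7.321 and 7.603 in WT and 7.441 and 9.11 in KO. At 24 h they were 5.548 and 4.989 in WT and 6.678 and 7.007 in KO. The share was lower at each later time in both genotypes, overlapped between genotypes at 0 h and 8 h, and was higher in both KO libraries than in both WT libraries at 24 h.

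**Figure D4:**
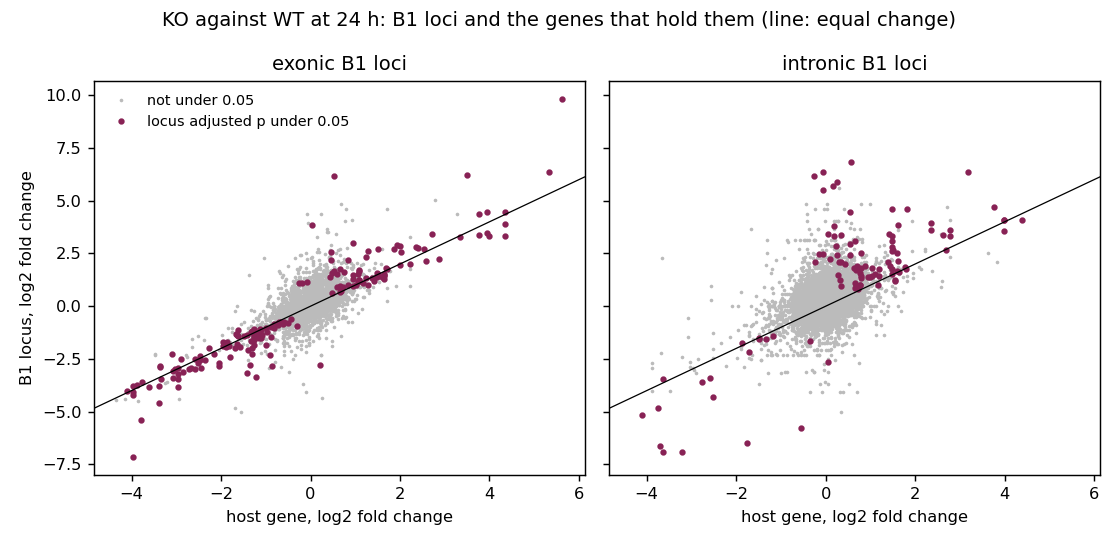
Log2 fold change of KO against WT at 24 h of each tested B1 locus (vertical axis) against that of the gene that holds it (horizontal axis), for 2900 exonic and 4450 intronic loci inside 1 tested gene. Dark points have a locus adjusted p under 0.05, and the line marks equal change. Exonic loci lie along the line, and intronic loci lie above it in 66.7% of cases.

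The 5 B1 loci with the most counts sat in UTRs. The largest was a B1F copy at chrX:101264482-101264623, shared by Il2rg (the common gamma chain of cytokine receptors) and the overlapping Gm20489, with 25422 counts in all. The next were a PB1D9 copy in Tcf7 (a T cell transcription factor) and overlapping Gm26551 with 19827, a PB1D10 copy in Zfp36 (an mRNA-destabilising protein) with 12261, a PB1D7 copy in Cnn2 (an actin-binding protein) with 11506 and a B1_Mur3 copy in Rsl1d1 (a nucleolar protein) with 10807. The Cnn2 copy stood at 41.7 and 47.0 CPM in WT and 25.3 and 28.5 in KO at 24 h. It fell in KO by 0.74 ± 0.152 (SE, edgeR adjusted p = 0.000933) and its gene fell by 0.71. The Rsl1d1 copy stood at 69.1 and 68.2 in WT and 47.7 and 44.3 in KO. It fell by 0.6 ± 0.154 (adjusted p = 0.0124) and its gene fell by 0.44. The Il2rg, Tcf7 and Zfp36 copies did not pass at 24 h.

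Among loci called lower in KO at 24 h with a mean count of at least 20 and no overlap of groups, taking 1 per gene, the 5 with the largest change lay in exons. An exonic B1_Mur3 copy where the genes Trip4 and Pclaf (a PCNA-binding factor) overlap stood at 28.2 and 28.9 CPM in WT and 1.13 and 1.09 in KO. Its log2 difference was -4.7 ± 0.302 (SE, edgeR adjusted p = 8.72e-17), and which gene's exon holds it was not resolved. A B1_Mm copy in Rrm2 (a subunit of ribonucleotide reductase) stood at 34.1 and 34.3 in WT and 2.16 and 2.13 in KO (-4.01 ± 0.275; its gene -4.11). A PB1D9 copy in Scd2 (a fatty acid desaturase) stood at 32.2 and 21 in WT and 3.29 and 3.5 in KO (-2.99 ± 0.253; its gene -2.71). The WT and KO libraries did not overlap in any of these, as the rule for naming them required. B1_Mur4 copies in Hells (a chromatin remodeller) and Cenpm (a centromere protein) had log2 differences of -3.76 ± 0.503 and -3.46 ± 0.448, beside -3.88 and -3.34 for their genes.

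The B1_Mus1 copy in Mir155hg, printed above, followed stimulation. It stood at 0.297 and 0.178 CPM in WT and 0.225 and 0 in KO at 0 h, at 41.6 and 40.7 in WT and 55.2 and 42.4 in KO at 8 h, and at 15.5 and 18.6 in WT and 49.8 and 42.6 in KO at 24 h. It was near 0 in all resting libraries, high in all at 8 h, and lower at 24 h in WT than in KO. edgeR gave 7.42 ± 0.366 (adjusted p = 3.79e-13) for WT at 8 h against 0 h and 1.42 ± 0.237 (adjusted p = 0.000562) for KO against WT at 24 h. A B1_Mus1 copy in the intron of Il2 (the T cell growth factor interleukin 2) was at 0 in all resting libraries and at 10.8 and 9.77 in WT and 8.52 and 7.65 in KO at 24 h (edgeR, WT 24 h against 0 h, adjusted p = 1.43e-18). A PB1D7 copy in the UTR of Il2ra (a chain of its receptor) went from 0.178 and 0.0592 to 20.2 and 24.2 in WT at 24 h, a rise of 7.48 ± 0.31 (adjusted p = 5.5e-25) that equalled the 7.48 of its gene. Of the loci that fell most in WT by 24 h, a B1_Mus1 copy in Gimap6 (a GTPase of lymphocyte survival) went from 65.0 and 23.1 to 1.07 and 1.33, a log2 change of -5.17 ± 0.493 (adjusted p = 6.05e-05) beside -2.75 for its gene. Exonic copies in Slfn5 (-8.99), Rasgrp2 and overlapping Gm14965 (-6.53), Pglyrp2 (-5.93) and Oasl2 (-5.47) fell by more. An intronic B1_Mus1 copy in Mir22hg and overlapping Tlcd2 was higher in KO than in WT at 24 h (5.21 ± 0.708, edgeR adjusted p = 4.94e-07).

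A B1_Mus1 copy in the UTR of Csf2rb (the common beta chain of the IL-3, IL-5 and GM-CSF receptors) was at 0 in both WT libraries and at 2.26 and 10.4 CPM in KO at 24 h. At 0 h it stood at 0.119 and 0.118 in WT and 1.35 and 1.62 in KO. edgeR called it higher at 24 h (adjusted p = 0.0044), and its gene rose by 5.63. The 7 basophil and mast cell markers summed to 163.9 and 606.7 in the same KO libraries and to 9.539 and 8.231 in WT, and their part in this result was not tested.

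A cluster of B1 loci beside Mir34a, the gene of a microRNA induced by p53, was higher in KO after stimulation. The loci lie in or just past Gm37795, a transcript model without known product at chr4:150068539-150070997 on the plus strand that overlaps Mir34a (chr4:150068454-150068555). The rule for named loci picked the B1_Mur1 copy in it and the B1_Mus1 copy past its end. The B1_Mm and B1F2 copies were chosen after their values were seen, because their sequences can be read, and are printed in the B1 direction on the minus strand, opposite to the transcript, with the same capitals.
B1_Mm at chr4:150069630-150069775: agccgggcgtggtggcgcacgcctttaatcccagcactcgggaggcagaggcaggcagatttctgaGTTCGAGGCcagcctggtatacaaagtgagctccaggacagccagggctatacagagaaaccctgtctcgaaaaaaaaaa
B1F2 at chr4:150069976-150070119: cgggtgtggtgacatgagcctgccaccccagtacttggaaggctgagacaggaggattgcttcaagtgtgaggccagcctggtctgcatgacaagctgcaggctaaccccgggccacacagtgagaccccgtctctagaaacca

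The B1_Mm copy holds a B box match and 7 CpG pairs, and the B1F2 copy no match and 3 CpG pairs. The B1_Mm copy stood at 0.0536 and 0.115 CPM in WT and 1.11 and 1.36 in KO at 8 h, and at 0.16 and 0.319 in WT and 3.13 and 4.43 in KO at 24 h. It rose in KO by 3.74 (adjusted p = 0.00269) at 8 h and by 3.92 ± 0.54 (SE, edgeR adjusted p = 7.62e-07) at 24 h. The B1F2 copy stood at 0.107 and 0.69 in WT and 3.88 and 4.48 in KO at 24 h and rose by 3.34 ± 0.54 (adjusted p = 2.5e-05). The B1_Mur1 copy (chr4:150070886-150071008), across the annotated end of the transcript, stood at 0.213 and 0.212 in WT and 4.53 and 5.3 in KO and rose by 4.46 ± 0.56 (adjusted p = 7.9e-08), beside 4.34 for Gm37795. The B1_Mus1 copy 393 bases past that end (chr4:150071390-150071535) stood at 0.16 and 0.319 in WT and 3.72 and 6.07 in KO and rose by 4.29 ± 0.52 (adjusted p = 4.68e-08). A further B1F2 copy between the last pair, also chosen after its values were seen, had 1 and 0 counts in WT and 19 and 16 in KO at 24 h, a ratio of depth-scaled counts of 35.7 (95% counting interval 6.0 to 1450). The first 4 copies were at most 0.105 CPM in every library at 0 h. No KO library overlapped a WT library at 8 h or 24 h, but the way these copies were chosen required or favoured this, so it adds no support. All 4 lie in or just past 1 transcript model and are not independent of each other. B1 loci farther along, from 150071857 to 150074123, had 2 to 4 counts each over the 12 libraries.

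Counts assigned to a second cluster at Cd4, the gene of the T cell co-receptor, differed between genotypes already at 0 h. Cd4 lies at chr6:124864692-124888221 on the minus strand. The PB1D10 copy in its intron (chr6:124880024-124880134) had 163 and 145 counts in KO and 2 and 0 in WT at 0 h. It had 24 and 24 against 0 and 1 at 8 h, and 49 and 52 against 0 and 1 at 24 h. The KO libraries were far above the WT libraries at each time. The ratio of depth-scaled counts at 0 h was 140 (95% counting interval 38.6 to 1170), and edgeR called the locus at 0, 8 and 24 h (adjusted p = 7.25e-13, 2.02e-05 and 1.89e-09).

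The PB1D10 copy 231 bases before the start of Cd4 (chr6:124888452-124888555) had no count in any of the 6 WT libraries. In KO it had 161 and 177 counts at 0 h, 13 and 17 at 8 h and 27 and 17 at 24 h, so it was at least 103-fold, 10.1-fold and 15-fold higher, taking a floor of 3 counts over each WT group. A PB1 copy in an intron of Cd4 (chr6:124887309-124887427), chosen after its values were seen, had 85 and 127 counts in KO and 1 and 2 in WT at 0 h, a ratio of 64.5 (counting interval 21.8 to 315; edgeR adjusted p = 1.6e-09). The intervals cover counting error only. By contrast with these 3 loci in or before Cd4, the exonic B1_Mur4 copy overlapped between genotypes at 0 h. At 24 h it did not overlap, at 0.586 and 0.637 CPM in WT and 1.35 and 1.26 in KO (ratio 2.13, counting interval 1.27 to 3.67). It stood at 1.61 and 1.24 CPM in WT and 1.23 and 1.36 in KO at 0 h (edgeR adjusted p = 1 at 0 h, 0.999 at 8 h and 0.278 at 24 h), and the other 6 intronic B1 copies of Cd4 had 14 to 55 counts each in all 12 libraries together. Cd4 itself differed by 0.03, -0.01 and -0.05 on the log2 scale at 0, 8 and 24 h and was not called. The way the knockout was made was not given. Reads from the Cd4 locus itself and from any sequence introduced with the knockout therefore cannot be told apart here. The source of these reads was not tested.

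**Figure D5:**
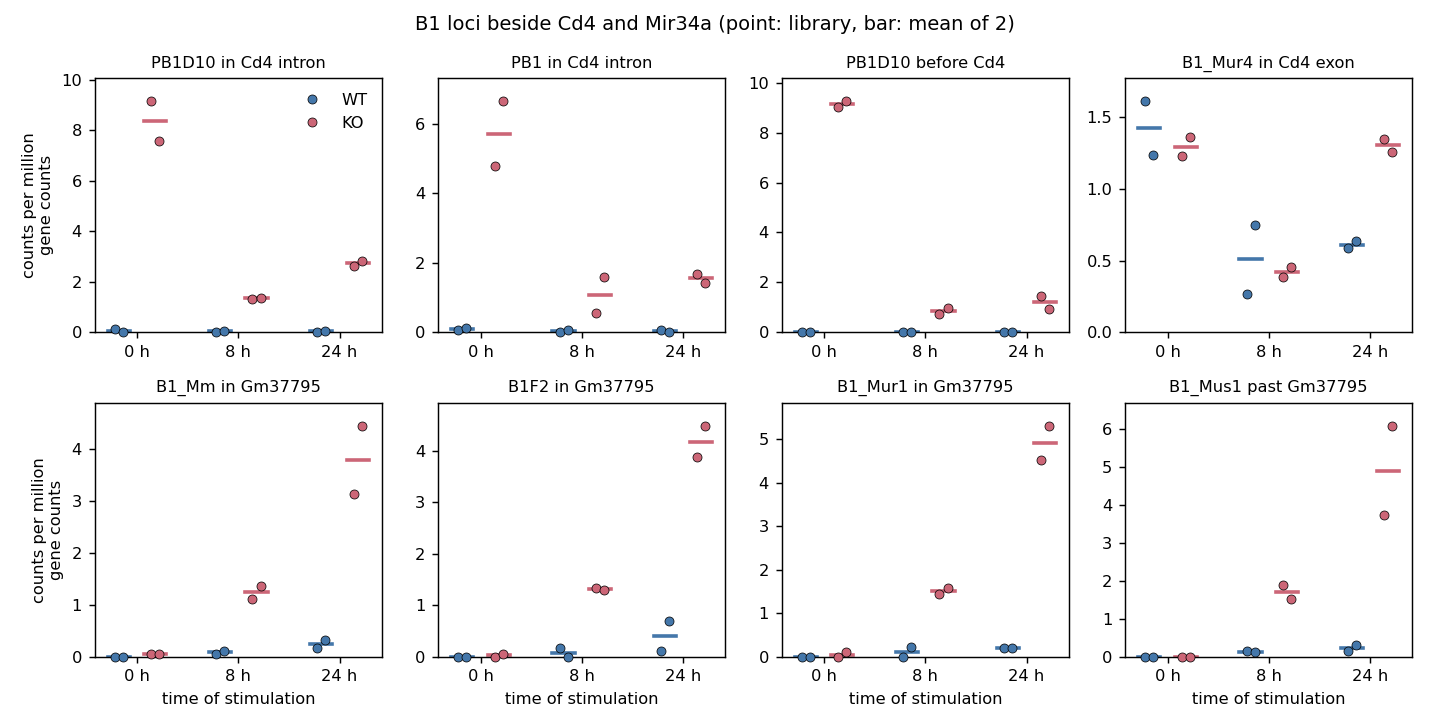
CPM (vertical axes, linear from 0, each panel with its own range) of 8 B1 loci in each library at 0, 8 and 24 h. Points are libraries and bars the mean of 2. The 3 PB1 and PB1D10 loci at Cd4 are near 0 in WT at all times and high in KO, highest at 0 h, whereas the 4 loci in or past Gm37795 are near 0 at 0 h and rise with time in KO.

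At 0 h edgeR called 11 B1 loci higher and 1 lower in KO, against 0.258% of all tested repeat loci, and at 8 h 13 higher and none lower against 0.231%. Beside the Cd4 loci, the named ones at 0 h were a B1F1 copy in Trip4 and Pclaf (0.0595 and 0 CPM in WT, 1.23 and 0.523 in KO), a B1_Mus2 copy in Kif15, a mitotic kinesin gene (0.178 and 0.0592 against 1.12 and 1.05) and the B1_Mm copy in Rrm2 (0.416 and 0.118 against 2.36 and 1.46). That each was higher in both KO libraries at 0 h was required by the rule for naming it. At 24 h each was lower in both KO libraries than in both WT libraries. The genes Kif15 and Rrm2 were higher in KO at 0 h too, by 1.76 and 1.83. The total at 0 h became 24 without the second KO 0 h replicate. The total at 8 h became 4 and 7 without the first and the second WT 8 h replicate. At 8 h a B1_Mus1 copy in Psrc1, a spindle gene, was higher in KO (0.376 and 0.577 against 2.16 and 1.64) with its gene at 2.62.

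In WT, more B1 loci were called between times than between genotypes. At 8 h 890 were higher and 1642 lower than at 0 h, against 31.7% of all tested repeat loci, and at 24 h 727 were higher and 2500 lower, against 39.7%. With repeat scaling the splits were 1349 higher and 1038 lower at 8 h and 1494 higher and 1005 lower at 24 h, so which direction prevails depends on the scaling. The total at 8 h became 1609, 1472 and 1656 without the first WT 0 h, the first WT 8 h and the second WT 8 h replicate, and the total at 24 h 2116 and 1999 without the first and the second WT 24 h replicate.

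Genes that make, bind, edit or silence B1 RNA were read from 4 lists. Of 24 genes of RNA polymerase III and its factors, 5 were higher and 4 lower in KO at 24 h (median 0.005 beside 0.021 over all genes), where 38.6% of all 15663 tested genes were called. Maf1, a repressor of RNA polymerase III, stood at 58.0 and 71.1 CPM in WT and at 120 and 121 in KO and rose by 0.88 ± 0.107 (SE, edgeR adjusted p = 1.42e-05). Gtf3c1, the subunit of TFIIIC that binds the B box, stood at 169 and 157 against 274 and 276 and rose by 0.73 ± 0.099 (adjusted p = 4.26e-05). Polr3k, a small subunit of the polymerase, stood at 60.9 and 60.5 against 41.4 and 41.5 and fell by 0.58 ± 0.131 (adjusted p = 0.00295). These 3 were named for having the smallest p of their list. The lack of overlap between their KO and WT libraries was favoured by that choice and adds no support. In WT at 24 h against 0 h, 14 of the 24 were higher and 3 lower (median 0.457 beside -0.082), where 66.6% of all genes were called.

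Of 22 genes of repeat silencing, 13 were lower and 1 higher in KO at 24 h (median -0.493 beside 0.021 over all genes), where 38.6% of all genes were called. Uhrf1, which guides maintenance DNA methylation, stood at 749 and 692 CPM in WT and 39.1 and 42.0 in KO and fell by 4.17 ± 0.123 on the log2 scale (edgeR adjusted p = 5.35e-11). Hells, which opens chromatin for that enzyme, fell by 3.88 ± 0.129, and Dnmt1, the maintenance DNA methyltransferase, stood at 897 and 837 against 168 and 182 and fell by 2.33 ± 0.106. In WT, Uhrf1 rose by 6.4 and Hells by 5.36 over 24 h, and at 0 h both were higher in KO, by 1.57 and 0.56. Of 16 genes that bind or process SINE and 7SL RNA, 1 was higher and 6 lower in KO at 24 h (median -0.211), against the same 38.6% called. Srp72, a signal recognition particle protein, rose by 0.74 ± 0.083, and Drosha, the nuclease of microRNA precursors, and Dis3, a nuclease of the RNA exosome, changed by -0.55 ± 0.089 and -0.45 ± 0.095. Of 18 genes of double-stranded RNA editing, unwinding and sensing, 4 were higher and 4 lower at 24 h (median 0.097), again against 38.6%. Dhx9, an RNA helicase, stood at 641 and 570 in WT and 416 and 411 in KO and fell by 0.57 ± 0.1. Adarb1, an RNA-editing enzyme, and Eif2ak2, the kinase PKR that binds double-stranded RNA, changed by -0.89 ± 0.139 and -0.92 ± 0.165. At 0 h 5 of the 18 were higher in KO and none lower (median 0.327), where 5.7% of all genes were called, among them the interferon-induced Oas2 (84.1 and 110 in WT, 228 and 271 in KO) and Zbp1 (138 and 175 against 259 and 297). At 8 h 3 genes of the double-stranded RNA list (Zbp1, Ifih1 and Oas1a) were higher and 2 of the silencing list (Hells and Uhrf1) lower, where 2.65% of all genes were called.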

How the data were processed

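RNA counts per gene and per repeat locus were deposited by the authors as raw whole-number counts in 2 tables, 1 column per library. Per the submitters' processing notes, the tools were STAR 2.7.1a and fastp 0.12.4 and the build mm10, with no roles given. The counting tool, its annotation and its handling of reads with several matches were not given in the sources used here. Reads of near-identical young B1 copies may therefore be assigned to one copy, to several or to none, and a locus level is uncertain to that extent. B1 loci were split into exonic, intronic and intergenic with GENCODE M21, ignoring strand, so antisense and overlapping genes are not separated.

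Counts were summed per subfamily, family and position or kept per locus, and tested with edgeR 4.0.16 (quasi-likelihood, robust, R 4.3.3) across all repeats, with 1 mean per group, 6 residual degrees of freedom, library sizes and TMM factors of the gene table, filterByExpr (minimum count 10, total 15) and Benjamini-Hochberg adjustment over all features of a fit, called under 0.05. For sums by position the adjustment ran over all sums and the 3 genotype contrasts together, and for each other contrast over its own sums alone. Log2 differences are given ± SE. Single values used exact permutation tests. Only the fit of single loci was run on simulated counts, for KO against WT at 24 h, and its outcome is not given here. Alternatives were RLE and repeat-based scaling, DESeq2 1.42.0, other filters, a replicate block and omission of each library. Loci named by rule were drawn from the 5 with the most counts and, for each genotype contrast and WT 24 h against 0 h, up to 5 per direction with the largest change among those with an adjusted p under 0.05, a mean count of at least 20 and no overlap of groups, 1 per gene. Not all of them are described. Of the gene lists, up to 3 genes per list with the smallest p are named. Whole-genome sequence was not used here. Printed sequences come from GENCODE M21 transcripts, so the intended intronic and intergenic copies gave way to exonic ones. The members and lists were chosen with earlier results of these data known.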

Additional observations from a re-analysis of the deposited data

Results flagged for a closer look

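The KO effect on B1_Mus1 was 0.48 higher at 24 h than at 0 h on the log2 scale, and that on B1_Mus2 was 0.38 higher, by a test of the difference between the 2 times (edgeR, adjusted p = 0.0188 and 0.0451). Among single loci the KO effect was higher at 24 h than at 0 h for 58 and lower for 54. With libraries scaled to repeat counts those became 20 and 100. The total of 112 loci ranged from 53 to 178 when single libraries were left out. The highest came without the second KO 0 h replicate. It was 53 and 57 without the first and the second KO 24 h replicate, and 61 and 72 without the first and the second WT 24 h replicate.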

How the results depend on the processing

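Each group has 2 libraries, so counts of calls move when 1 is left out, and the cause of each shift below was not tested. The share of B1 loci too shallow to test singly is large, and a difference there was not detectable at this depth.

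Scaling to repeat counts changed B1 subfamilies called at 24 h from 3 to 0, intergenic ones from 11 to 3, those called for the change in the KO effect between 0 h and 24 h from 2 to 0, sums by position from 1 to 2 (1 higher, 1 lower) and WT 24 h against 0 h from 14 lower to 8 higher (intergenic 11 to 5, far from genes 4 to 10), and loci called at 0 h from 12 to 19. DESeq2 gave 0 subfamilies at 24 h, 0 for the change, 3 for WT at 8 h, and 7, 181, 1480, 2016 and 60 loci for KO at 0 h, KO at 24 h, WT at 8 h, WT at 24 h and the change. Fitting only the libraries of that time gave 6 subfamilies at 24 h and 5, 20 and 556 loci at 0, 8 and 24 h. Subfamilies called for the change became 1 with RLE factors, 1 with no filter and 1 without exonic loci. Subfamilies at 24 h became 0 with only exonic, 11 with only intergenic and 11 with only far loci, and sums by position became 2 when the intergenic sum was split by distance; these splits were chosen after seeing the data. The B1 to B2 ratio turned from -0.0294 to 0.0441 without exonic loci.

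Leaving out 1 library at a time gave 0 to 6 subfamilies at 24 h, 4 to 10 for WT at 8 h, 10 to 15 for WT at 24 h, 0 to 11 for the change, 0 to 12 intergenic and 0 to 13 far subfamilies at 24 h, 8 to 11 intergenic and 3 to 4 far ones for WT at 24 h, and 0 to 1 sums by position at 24 h. Loci ranged from 8 to 24, 4 to 17 and 151 to 437 for KO at 0, 8 and 24 h, from 1472 to 2708 and 1999 to 3373 for WT at 8 and 24 h, and from 53 to 178 for the change. The KO difference in total B1 CPM ranged from 0.0403 to 0.1183 and that of the B1 to B2 ratio from -0.0349 to -0.0239.

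Groups share replicate numbers, but no label says what a number marks. Deviations of same-numbered libraries correlated at -0.099 to 0.29 over genes, above 0.1 in 8 of 15 pairs of groups, so a pairing was not established; between the KO times they correlated at 0.111 to 0.29. With a replicate block, subfamilies called for the change became 5 from 2, and no other count of calls moved by over 1.5 times.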
